A study of Mus musculus with 18 samples.

Results

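The genes described here are 39 listed mouse genes that act in G2 phase and mitosis, the steps in which a cell prepares to divide and separates its chromosomes. They comprise cyclins and CDK1 activators, mitotic kinases, spindle checkpoint and kinetochore genes, spindle and chromosome genes, anaphase genes and cytokinesis genes. Each was taken as the brightest probe set that carries its symbol and no other, and 38 of the 39 were found among 19938 genes. Ccnb1, which encodes cyclin B1, had no such probe set in the annotation used and was not analysed here. Total RNA of mouse B16 F10.9-4 melanoma cells was hybridised to 18 arrays, 3 in each of 6 groups, 1 from each of 3 independent experiments. The cells of the LIP groups were given doxycycline beforehand to induce LIP, the short inhibitory isoform of the transcription factor C/EBPβ. Tunicamycin blocks N-glycosylation in the endoplasmic reticulum (ER) and so causes ER stress. The groups were doxycycline alone at 0 h (LIP cells), tunicamycin for 5 h without and with doxycycline, tunicamycin for 12 h without and with doxycycline, and vehicle at 0 h. No vehicle arrays at 5 or 12 h and no doxycycline arrays of cells without the LIP construct were used here, so tunicamycin cannot be told apart from time in culture, nor LIP from doxycycline itself. The labels name 1 cell line and do not say whether it is a clone.

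Transcripts of these genes build up late in the cell cycle and are low in G1 and in resting cells. CDK1 with cyclins A and B drives entry into mitosis, polo-like and Aurora kinases build the spindle, and the spindle checkpoint holds back the anaphase-promoting complex until all kinetochores are attached. In resting cells the DREAM complex holds many of these genes down, in dividing cells B-MYB and FOXM1 join the same MuvB core to raise them, and the DNA elements involved are a CHR element (TTTGAA) near the start site and upstream CCAAT boxes bound by NF-Y.

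For the falls, only genes with a CHR element or CCAAT box in their promoter were considered for printing. Melk fell more than Kif20b at the later tunicamycin time but was left out because its promoter held neither. The promoters below belong to the considered genes with the strongest falls at that time and to the gene with the smallest change. They are RefSeq sequences of build GRCm38.p6 from 250 bases before to 50 bases after an annotated transcription start. That start is not always the outer end of the gene. The sequences run 5′ to 3′ on the gene's strand, with capitals marking CHR elements and CCAAT boxes on either strand. Ccnf encodes cyclin F and lies at chr17:24251360-24251659 on the minus strand. Bub1b encodes the checkpoint kinase BUBR1 and lies at chr2:118597961-118598260 on the plus strand. Cenpf encodes a kinetochore protein and lies at chr1:189688037-189688336 on the minus strand. Kif20b encodes a kinesin of cytokinesis and lies at chr19:34922108-34922407 on the plus strand. Ube2c encodes the ubiquitin-conjugating enzyme of the anaphase-promoting complex and lies at chr2:164769679-164769978 on the plus strand. Ccnf held 2 CHR and 2 CCAAT matches, Bub1b 1 of each, Cenpf 1 CHR match and 2 CCAAT matches, and Kif20b 2 adjoining CHR matches with 0 CCAAT boxes. Ube2c held 1 CHR match and 6 CCAAT matches, of which an adjoining pair overlaps.
Ccnf: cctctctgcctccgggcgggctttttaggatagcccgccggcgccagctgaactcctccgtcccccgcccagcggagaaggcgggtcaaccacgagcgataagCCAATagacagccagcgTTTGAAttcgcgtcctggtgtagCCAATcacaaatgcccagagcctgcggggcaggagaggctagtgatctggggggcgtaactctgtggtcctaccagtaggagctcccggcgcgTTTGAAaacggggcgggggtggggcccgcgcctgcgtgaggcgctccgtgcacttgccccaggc
Bub1b: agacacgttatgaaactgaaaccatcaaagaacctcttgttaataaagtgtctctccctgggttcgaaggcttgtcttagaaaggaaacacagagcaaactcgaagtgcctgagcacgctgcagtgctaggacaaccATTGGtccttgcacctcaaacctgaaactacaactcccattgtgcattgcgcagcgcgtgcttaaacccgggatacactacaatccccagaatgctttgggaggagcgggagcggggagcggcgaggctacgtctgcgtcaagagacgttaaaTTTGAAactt
Cenpf: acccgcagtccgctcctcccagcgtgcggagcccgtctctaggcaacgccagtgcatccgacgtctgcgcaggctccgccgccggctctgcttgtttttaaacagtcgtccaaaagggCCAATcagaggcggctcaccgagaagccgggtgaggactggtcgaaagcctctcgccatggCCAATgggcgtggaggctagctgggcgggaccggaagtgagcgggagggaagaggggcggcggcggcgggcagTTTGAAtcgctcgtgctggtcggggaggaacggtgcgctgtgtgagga
Kif20b: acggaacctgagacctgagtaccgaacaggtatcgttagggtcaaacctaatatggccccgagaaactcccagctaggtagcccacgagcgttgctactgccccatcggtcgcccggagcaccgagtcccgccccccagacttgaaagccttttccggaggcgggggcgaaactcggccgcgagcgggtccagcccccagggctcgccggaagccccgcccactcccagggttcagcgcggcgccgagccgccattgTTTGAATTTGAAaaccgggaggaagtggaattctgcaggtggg
Ube2c: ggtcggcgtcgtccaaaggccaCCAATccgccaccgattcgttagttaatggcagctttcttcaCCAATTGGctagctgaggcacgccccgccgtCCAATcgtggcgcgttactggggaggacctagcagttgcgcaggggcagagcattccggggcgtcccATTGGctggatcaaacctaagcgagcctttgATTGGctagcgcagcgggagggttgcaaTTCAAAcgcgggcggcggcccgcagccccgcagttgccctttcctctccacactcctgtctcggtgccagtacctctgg

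Of the 38 measured members, 31 had a promoter entry, in 33 promoters because Ect2 and Prc1 had 2 each. In both genes the 2 promoters overlap, so sites they share were counted for each promoter. The motif TTTGAA, read on both strands, lay in 24 of the 33 promoters (72.7%), against 14.8% of 19177 promoters of genes on the array. CCAAT, read on both strands, lay in 24 of the 33 as well (72.7%), against 37.4% of the promoters of genes on the array. Both motifs together lay in 20 (60.6%), against 5.85%. TTGCNNAA, a C/EBP-like motif, lay in 0 of the 33, against 9.75%, which says only that these letters are not in these windows. The CHR matches crowded around the start, with 25 of 32 within 50 bases of it and a median position of -1.5. The CCAAT matches lay further upstream, with 44 of 54 in the 150 bases before the start and a median position of -66.5. In Birc5, Mad2l1, Melk, Nuf2 and Nusap1 none of the motifs was found in this window. Matches are a description of sequence and were not tied to binding in these cells.

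**Figure D1:**
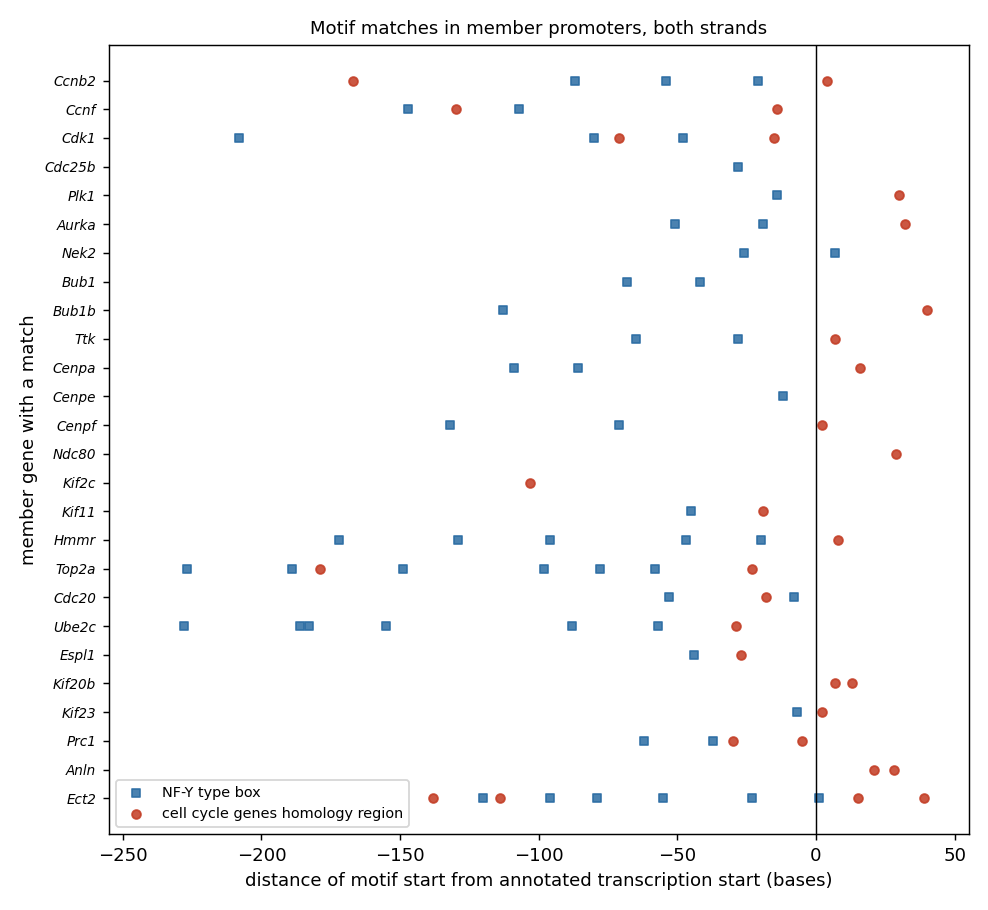
Positions of CHR (TTTGAA) matches and CCAAT-box matches in the promoters of the 26 members that hold a match, in bases from the annotated start (x axis), 1 line per gene. The 32 CHR matches gather around 0 and most of the 54 CCAAT matches lie upstream of it. The 2 promoters of Ect2 overlap, as do the 2 of Prc1, so the matches of these genes are drawn and counted for each promoter.

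The values are log2 intensities, so a difference of 1 is a doubling, and p-values are from limma with Benjamini-Hochberg adjustment over all 19938 genes at a threshold of 0.05. All 38 members lay above 6.07, the 95th percentile of 1194 olfactory and vomeronasal receptor genes used as silent genes, and their means over all arrays ran from 9.46 for Cdc25c to 12.70 for Mad2l1. Arrays of a group correlated at 0.993 to 0.998, and the SD of a member within a group had a median of 0.042. The p-values measure the spread between 3 experiments in this cell line. The melanocyte markers Mitf, Sox10, Tyr, Tyrp1, Dct, Pmel, Mlana and Gpr143 lay above 6.07. Of 7 markers of other cell types, Ptprc, Adgre1, Pecam1, Epcam and Krt14 lay below it, Cd3e averaged 6.71 and Col1a1 averaged 7.79. Cebpb, whose probe set does not separate LIP from the longer isoforms, was 11.02, 11.27 and 11.24 in LIP cells, against 9.26, 9.26 and 9.48 with vehicle (difference 1.84 ± 0.071 (SE), adjusted p = 2.02e-11). Its difference with doxycycline was 1.81 at 5 h and 1.22 at 12 h of tunicamycin. The Tm 5 h array of experiment 2 and the Tm 12 h array of experiment 3 stood furthest from their groups, with residual SDs over all genes of 0.113 and 0.0895, against 0.0606 to 0.088 for the other 16 arrays. Counts without that pair of arrays are given beside the members' counts.

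The mitotic genes were highest with vehicle and lowest in LIP cells after 12 h of tunicamycin. The median member level was 11.07 with vehicle, 10.98 in LIP cells, 10.85 after 5 h of tunicamycin, 10.67 in LIP cells after 5 h, 10.76 after 12 h and 10.45 in LIP cells after 12 h. The lowest group was LIP cells at 12 h for 35 of the 38 members and LIP cells at 5 h for Cenpe, Ndc80 and Hmmr. The highest group was vehicle for 27 members, LIP cells for 10 and tunicamycin for 12 h for Ube2c. These are RNA levels of whole cultures, in which fewer cells in G2 and mitosis and less mitotic RNA per cell cannot be told apart.

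**Figure D2:**
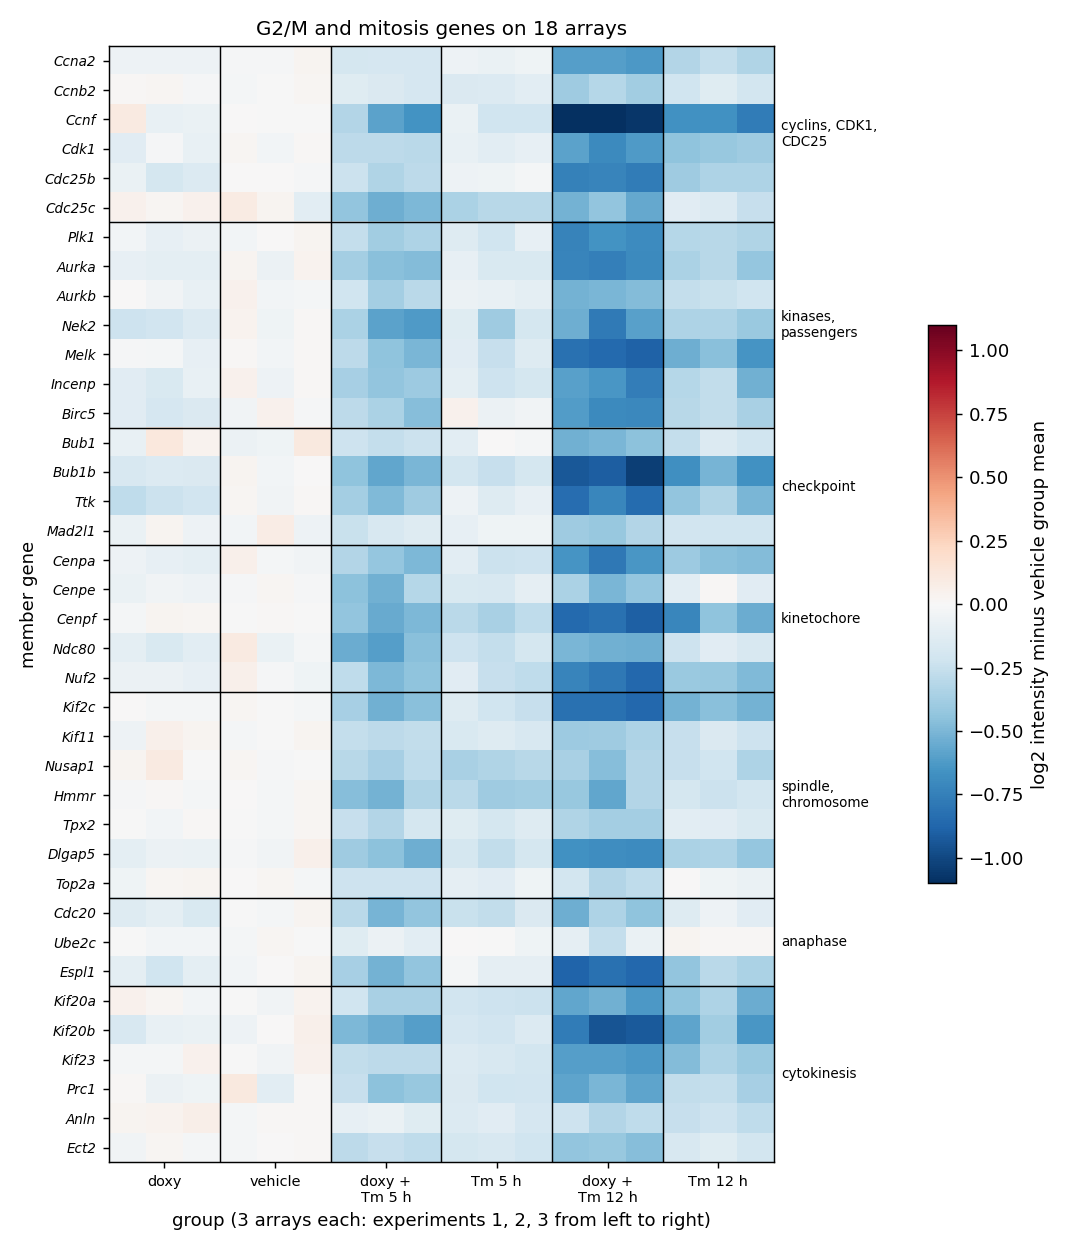
Level of each of the 38 members (lines) in each of the 18 arrays (columns), as the log2 difference from that gene's vehicle mean. For 35 of the 38 members the lowest group mean is that of the 3 arrays of LIP cells after 12 h of tunicamycin. Taken from each gene's mean over all arrays, which is not drawn, their member medians were -0.36 to -0.34. Those of the vehicle arrays were the highest, at 0.22 to 0.26.

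LIP induction alone, in cells without tunicamycin, was compared with vehicle to ask what LIP does before ER stress. Only Ttk passed the test, at a lower level. This was 1 of 38 members called lower and 0 higher, where 5.82% of all genes were called lower and 4.89% higher, and the member median was -0.04, against 0.02 over all genes. Ttk encodes the kinase MPS1, which starts the spindle checkpoint. It was at 9.53, 9.57 and 9.59 in LIP cells, against 9.82, 9.77 and 9.82 with vehicle. Every LIP array was below every vehicle array, and the difference was -0.24 ± 0.053 (SE, adjusted p = 0.0056). At an unadjusted p under 0.05, 9 members were lower and 0 higher, against 2288 and 2148 of all 19938 genes.

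The named kinases and the anaphase activator did not pass the test in this comparison. Cdk1, the mitotic cyclin-dependent kinase, was at 11.93, 12.04 and 11.98 in LIP cells, against 12.08, 12.02 and 12.06 with vehicle (difference -0.07 ± 0.0442 (SE), adjusted p = 0.374). Plk1, the polo-like kinase, was at 12.05, 11.98 and 12.01 in LIP cells, against 12.05, 12.07 and 12.10 with vehicle (difference -0.06 ± 0.0472 (SE), adjusted p = 0.495). In both genes the arrays of the groups overlapped. Cdc20, the activator of the anaphase-promoting complex, was at 11.07, 11.11 and 11.04 in LIP cells, against 11.20, 11.19 and 11.24 with vehicle (difference -0.14 ± 0.0591 (SE), adjusted p = 0.168). Nek2, a centrosomal kinase, was at 9.78, 9.80 and 9.86 in LIP cells, against 10.05, 9.96 and 10.02 with vehicle (difference -0.20 ± 0.0775 (SE), adjusted p = 0.126). The LIP arrays of Cdc20 and Nek2 lay below the vehicle arrays without overlap. Bub1b was at 10.76, 10.79 and 10.78 in LIP cells, against 10.96, 10.90 and 10.94 with vehicle (difference -0.16 ± 0.0523 (SE), adjusted p = 0.0577). Birc5, survivin of the chromosomal passenger complex, was at 10.32, 10.27 and 10.29 in LIP cells, against 10.41, 10.50 and 10.43 with vehicle (difference -0.15 ± 0.0528 (SE), adjusted p = 0.0705). Both were lower in each LIP array than in any vehicle array.

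The count of 1 moved with the arrays used. It was 0 without experiment 1 or 3, 2 without the LIP array of experiment 1, 1 without the pair of arrays that stood apart, and 4 to 7 under the settings given with the other alternatives.

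After 5 h of tunicamycin, LIP cells were compared with cells without doxycycline to ask what LIP adds to early ER stress. Cyclin, kinase, checkpoint and kinetochore genes were lower in LIP cells: 24 of 38 members were called lower and 0 higher, where 5.21% of all genes were called lower and 6.76% higher. The member median was -0.19, against -0.01 over all genes. At an unadjusted p under 0.05, 31 members were lower and 0 higher, against 2109 and 2260 of all 19938 genes. All 7 kinase and passenger genes, all 5 kinetochore genes, 3 of 4 checkpoint genes and 4 of 6 cyclin and CDK1 genes fell. Only 2 of 7 spindle and chromosome genes and 1 of 6 cytokinesis genes passed the test, with medians of -0.11 and -0.10.

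The largest falls were in Kif20b, Espl1, Ccnf and Birc5. Kif20b was at 9.88, 9.83 and 9.77 in LIP cells, against 10.19, 10.17 and 10.22 without doxycycline (difference -0.36 ± 0.0645 (SE), adjusted p = 0.000677). Espl1, which encodes separase, the protease that cuts cohesin at anaphase, was at 9.52, 9.36 and 9.45 in LIP cells, against 9.86, 9.78 and 9.78 without doxycycline (difference -0.36 ± 0.0531 (SE), adjusted p = 0.000102). Each corresponds to a level 1.29-fold lower in LIP cells, with no overlap of the arrays. Ccnf, a cyclin that serves as the F-box subunit of a ubiquitin ligase, was at 10.34, 10.08 and 10.01 in LIP cells, against 10.59, 10.44 and 10.45 without doxycycline (difference -0.35 ± 0.0749 (SE), adjusted p = 0.0032). Of 18 alternatives 2 lost the call of Ccnf, with an adjusted p of up to 0.0963. Birc5 was at 10.16, 10.10 and 9.98 in LIP cells, against 10.49, 10.38 and 10.41 without doxycycline (difference -0.34 ± 0.0528 (SE), adjusted p = 0.000176). For both genes every LIP array was below every array without doxycycline.

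Cdk1 was at 11.77, 11.77 and 11.76 in LIP cells at 5 h, against 11.98, 11.94 and 11.96 without doxycycline (difference -0.20 ± 0.0442 (SE), adjusted p = 0.00513). Plk1 was at 11.81, 11.69 and 11.73 in LIP cells, against 11.93, 11.85 and 11.98 without doxycycline (difference -0.18 ± 0.0472 (SE), adjusted p = 0.0146). Both fell with no overlap between the groups, but of 18 alternatives 7 lost the call of Plk1 (adjusted p up to 0.351) and 2 that of Cdk1 (adjusted p up to 0.164). Cdc20 was at 10.91, 10.70 and 10.77 in LIP cells, against 10.97, 10.94 and 11.05 without doxycycline (difference -0.19 ± 0.0591 (SE), adjusted p = 0.043, and 0.0586 with the experiment as a block). Its call was lost under 9 of 18 alternatives, with an adjusted p of up to 0.479. The Cdc20 arrays did not overlap, but the array of experiment 1 in LIP cells lay close to those without doxycycline.

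The members not called at 5 h were Ccnb2, Cdc25c, Mad2l1, Kif11, Nusap1, Hmmr, Tpx2, Top2a, Ube2c, Kif20a, Kif23, Prc1, Anln and Ect2. Among them, Ccnb2, a cyclin B, differed by -0.01, Nusap1, which binds spindle microtubules, by 0.02, and Anln, the contractile ring protein anillin, by 0.05. The count of 24 was 21 without the pair of arrays that stood apart, 14 without experiment 1 or experiment 2 and 7 without experiment 3. It was 15 and 14 without the LIP 5 h array of experiment 2 or 3, and 11 when only the compared groups were fitted.

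After 12 h of tunicamycin nearly the whole list was lower in LIP cells than in cells without doxycycline. The test called 35 of 38 members lower and 0 higher, where 7.77% of all genes were called lower and 6.95% higher, and the member median was -0.29, against 0.00 over all genes. Without adjustment, at a p under 0.05, 37 members were lower and 0 higher, against 2558 and 2314 of all 19938 genes. All members of the cyclin, kinase, checkpoint, kinetochore and anaphase groups fell, as did 6 of 7 spindle and chromosome genes and 4 of 6 cytokinesis genes. The called members stood at 70.9% to 89.3% of the level without doxycycline. Nusap1 (-0.11), Anln (-0.03) and Kif20a did not pass. Kif20a, a kinesin of the central spindle, averaged 10.91 in LIP cells, against 11.05 without doxycycline. Top2a, the only member with 2 probe sets, differed by -0.23 by the brighter one used here, against -0.05 by the other, which lay near the level of silent genes at 6.37.

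**Figure D3:**
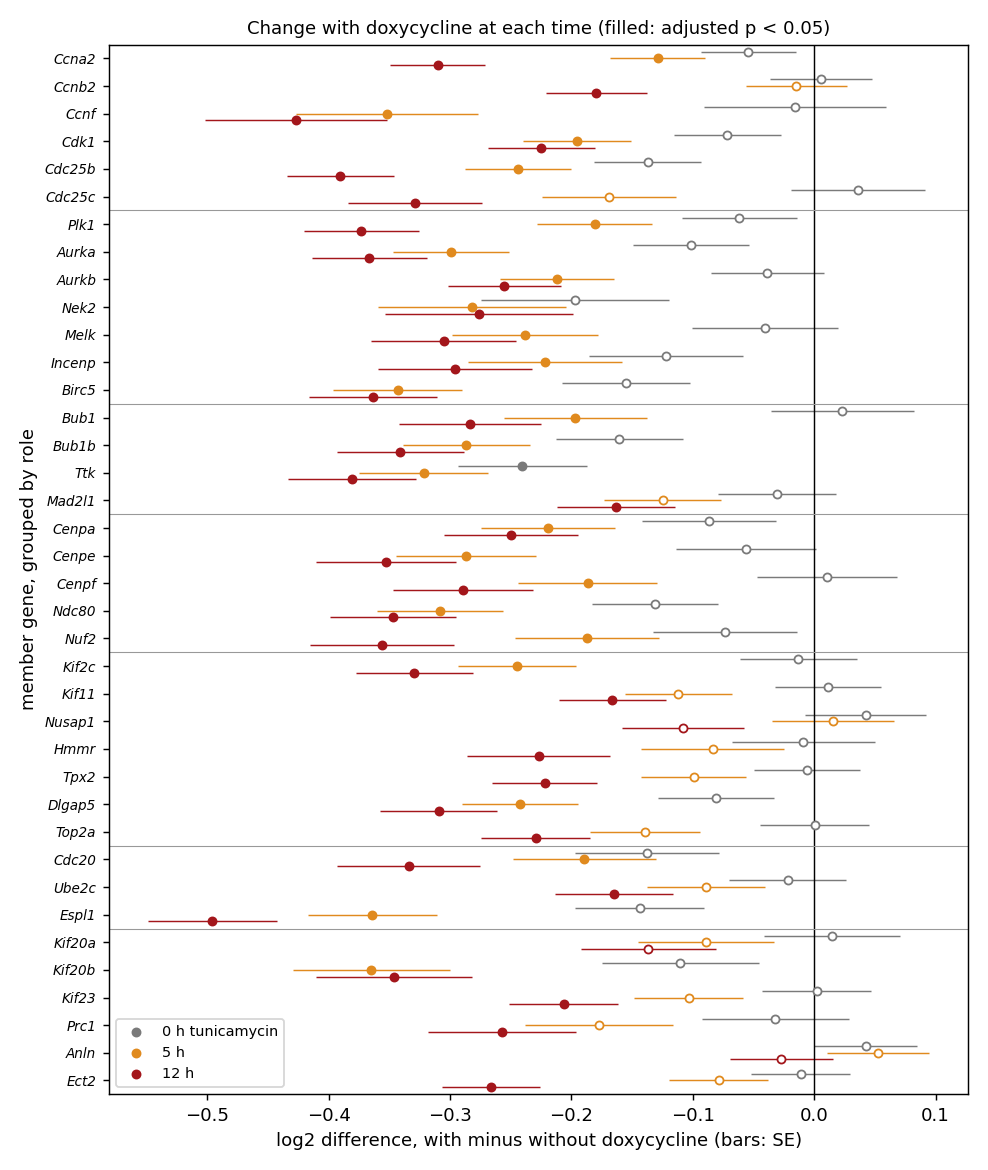
Log2 difference between LIP cells and cells without doxycycline for each of the 38 members (y axis, grouped by role) at 0, 5 and 12 h of tunicamycin, with SE bars and filled points for an adjusted p under 0.05. All 38 points lie further left at 12 h than at 0 h, and 36 lie further left at 12 h than at 5 h. The change between 5 and 12 h passed the test for 0 members. At 0, 5 and 12 h, 1, 24 and 35 members were called lower, and Anln stays near 0 at each time.

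Espl1 was at 9.01, 9.07 and 9.02 in LIP cells at 12 h, against 9.45, 9.59 and 9.54 without doxycycline (difference -0.50 ± 0.0531 (SE), adjusted p = 2.27e-06). It had the largest difference of the list here, a level 1.41-fold lower, with the groups far apart. Ccnf was at 9.56, 9.45 and 9.59 in LIP cells, against 9.99, 10.00 and 9.89 without doxycycline (difference -0.43 ± 0.0749 (SE), adjusted p = 0.000463). Cdc25b, a phosphatase that activates CDK1, was at 9.66, 9.68 and 9.64 in LIP cells, against 10.02, 10.07 and 10.06 without doxycycline (difference -0.39 ± 0.0439 (SE), adjusted p = 4.22e-06). In neither gene did the groups overlap. Ttk was at 8.96, 9.08 and 8.95 in LIP cells, against 9.37, 9.47 and 9.30 without doxycycline (difference -0.38 ± 0.053 (SE), adjusted p = 4.46e-05). Its LIP arrays were again the lower ones, as at 0 and 5 h.

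Cdk1 was at 11.46, 11.35 and 11.43 in LIP cells at 12 h, against 11.61, 11.64 and 11.67 without doxycycline (difference -0.22 ± 0.0442 (SE), adjusted p = 0.00132). Its call was lost without experiment 3 (adjusted p = 0.0833). Plk1 was at 11.34, 11.42 and 11.38 in LIP cells, against 11.76, 11.77 and 11.74 without doxycycline (difference -0.37 ± 0.0472 (SE), adjusted p = 1.53e-05). Cdc20 was at 10.67, 10.87 and 10.77 in LIP cells, against 11.07, 11.16 and 11.08 without doxycycline (difference -0.33 ± 0.0591 (SE), adjusted p = 0.000502). All LIP arrays of these genes lay below all arrays without doxycycline. The 24 members called at 5 h were all called at 12 h. That is 100% of the 5 h list and 68.6% of the 12 h list. With 35 of 38 members called at 12 h, most of any 5 h list would recur, so this overlap says little. The comparisons share no arrays, but both used a spread estimated over all groups. Ttk was called at all 3 times.

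The count of 35 was 34 without the pair of arrays that stood apart. Of the 7 markers of other cell types only Col1a1 was called in this comparison, at 8.02, 8.08 and 8.01 in LIP cells, against 7.76, 7.72 and 7.87 without doxycycline (difference 0.25, adjusted p = 0.0209). The summed level of the 7 markers was 9.18 to 9.23 in LIP cells, against 9.02 to 9.15 without doxycycline, Ptprc, Adgre1, Pecam1, Epcam and Krt14 stayed below the level of silent genes on average, and the part of these markers in the result was not tested. The melanocyte markers moved with LIP as well: of 8, the test called 6 lower and 0 higher at 0 h. At 5 h and at 12 h it called 7 lower and 0 higher. Of all genes 5.82%, 5.21% and 7.77% were called lower at 0, 5 and 12 h, and 4.89%, 6.76% and 6.95% higher. The marker medians were -0.32, -0.42 and -0.44. At 12 h the markers ran from -0.90 for Gpr143, a melanosome receptor, to -0.12 for Tyrp1, which was not called (adjusted p = 0.0712). Pmel, a melanosome matrix protein, differed by -0.80. The markers' part in the members' LIP differences was not tested.

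**Figure D4:**
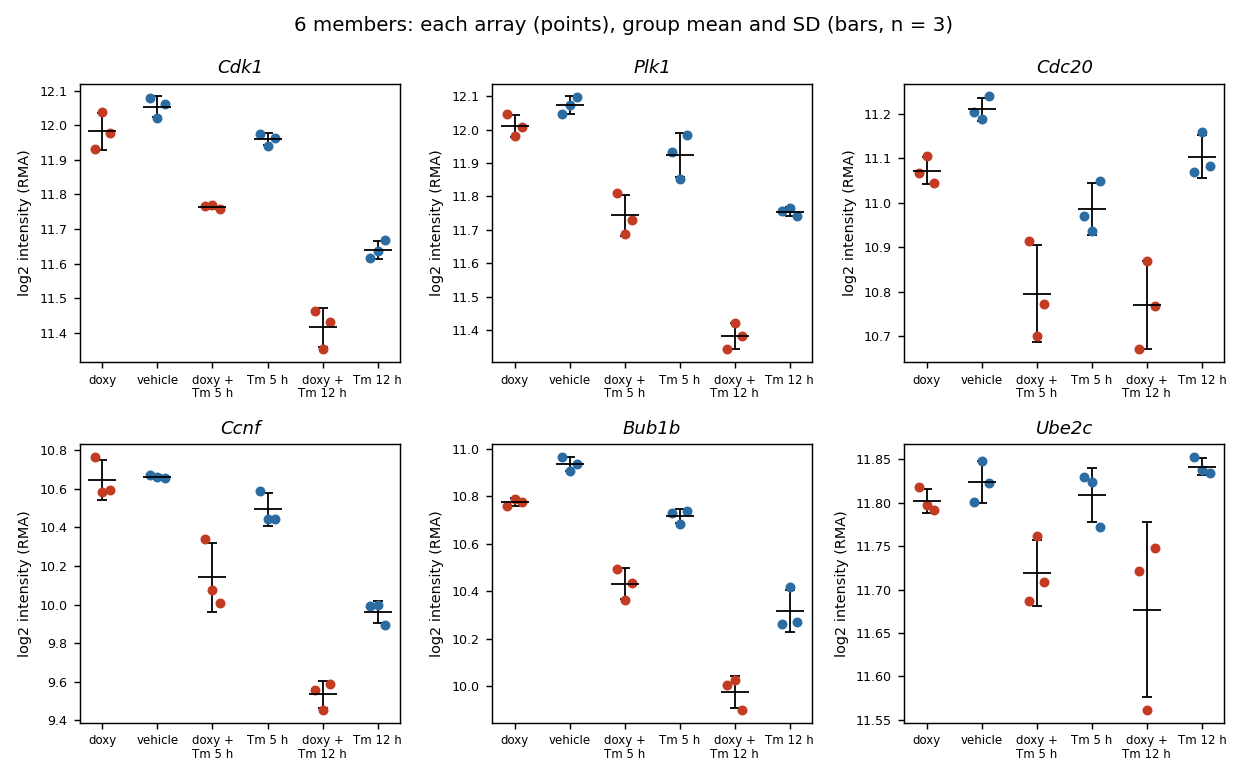
Log2 level in each array for 6 members over the 6 groups, with 1 point per experiment and bars for the group mean and SD (n = 3). Each panel has its own y scale. All 6 have their lowest group mean in LIP cells after 12 h, and the Ube2c levels lie between 11.56 and 11.85.

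Whether the LIP effect at 12 h of tunicamycin exceeded that at 0 h was tested as an interaction. It was more negative at 12 h for 7 of 38 members and less negative for 0, where 0.848% of all genes were called lower and 0.993% higher, and the member median of the interaction was -0.22. At an unadjusted p under 0.05, 30 members were lower and 0 higher, against 1254 and 1207 of all 19938 genes. The called members were Cdc25c, Espl1, Kif2c, Plk1, Ccna2, Ect2 and Cdc25b, and they belong to 5 of the 7 role groups. Cdc25c, another CDK1-activating phosphatase, differed between LIP cells and cells without doxycycline by -0.33 at 12 h, against 0.04 at 0 h. Kif2c, a kinesin that takes microtubules apart at kinetochores, differed by -0.33 at 12 h, against -0.01 at 0 h. Ccna2, cyclin A, differed by -0.31 at 12 h, against -0.05 at 0 h. Ect2, which activates RhoA for cytokinesis, differed by -0.27 at 12 h, against -0.01 at 0 h. In these 4 genes the difference passed the test at 12 h and not at 0 h. For Ttk, the interaction was -0.14 (adjusted p = 0.474). Ccnf had an interaction of -0.41 that did not pass (adjusted p = 0.0554).

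The count of 7 was 7 without the pair of arrays that stood apart and 11 with the experiment as a block, ran from 0 to 18 under other settings, and was 0 when the array medians were set equal. It was 0 without experiment 1 or 3, 1 without experiment 2 or without the LIP 12 h array of experiment 3, 2 without the vehicle or the LIP 0 h array of experiment 1, 3 without the LIP 0 h array of experiment 3, and 4 without the vehicle array of experiment 2 or 3.

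The LIP effect at 5 h against that at 0 h gave 0 called members with limma, where 0% of all genes were called lower and 0.0301% higher. At an unadjusted p under 0.05, 15 members were lower and 0 higher, against 834 and 817 of all 19938 genes. The member median was -0.12. The count was also 0 without the pair of arrays that stood apart. The LIP effect at 12 h against that at 5 h also gave 0 called members, and 0 without that pair. Of all genes 0.492% were called lower and 0.211% higher. With an unadjusted p under 0.05, 5 members were lower and 0 higher, against 970 and 746 of all 19938 genes. The member median was -0.08. The larger count of called members at 12 h than at 5 h is therefore not shown to be a difference in effect for any single member.

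Tunicamycin for 5 h, without doxycycline, was compared with vehicle to give the early stress response. Spindle, kinetochore and cytokinesis genes fell: 19 of 38 members were called lower and 0 higher, where 4.94% of all genes were called lower and 4.08% higher, and the member median was -0.17, against 0.02 over all genes. Before adjustment 28 had a p under 0.05 and were lower, and 0 were higher, against 2255 and 2211 of all 19938 genes. By role, 6 of 7 spindle and chromosome genes, 4 of 5 kinetochore genes and 5 of 6 cytokinesis genes were called. The kinase and passenger group gave 0 of 7 with limma, 5 of them lower at an unadjusted p under 0.05.

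Hmmr, a spindle-associated hyaluronan receptor, was at 9.58, 9.49 and 9.49 after 5 h of tunicamycin, against 9.88, 9.85 and 9.89 with vehicle (difference -0.35 ± 0.0589 (SE), adjusted p = 0.000781). Nusap1 was at 11.27, 11.29 and 11.31 after 5 h, against 11.64, 11.60 and 11.62 with vehicle (difference -0.33 ± 0.05 (SE), adjusted p = 0.000337). Cdc25c was at 9.36, 9.40 and 9.40 after 5 h, against 9.79, 9.73 and 9.59 with vehicle (difference -0.32 ± 0.0552 (SE), adjusted p = 0.00111). Without experiment 1 Cdc25c lost its call (adjusted p = 0.0735). In these genes each tunicamycin array was below each vehicle array. The count of 19 was 11 without the pair of arrays that stood apart, 3, 6 and 3 without experiment 1, 2 or 3, and 9 when only the compared groups were fitted. It was 8 and 10 without the vehicle array of experiment 1 or 3, and 10 without the tunicamycin array of experiment 3.

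Tunicamycin for 12 h, without doxycycline, lowered nearly all of the list against vehicle. The test called 34 of 38 members lower and 0 higher, where 15.8% of all genes were called lower and 11.9% higher, and the member median was -0.32, against 0.00 over all genes. The same number, 34, were lower at an unadjusted p under 0.05, with 0 higher, against 3914 and 3005 of all 19938 genes. All cyclin, kinase, checkpoint and cytokinesis genes fell. Cenpe, a kinetochore motor (-0.07), Top2a, topoisomerase II (-0.04), Cdc20 and Ube2c (0.02) did not pass.

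Ccnf was at 9.99, 10.00 and 9.89 after 12 h, against 10.67, 10.66 and 10.66 with vehicle (difference -0.70 ± 0.0749 (SE), adjusted p = 6.09e-07). This was the largest difference of the list, a level 1.62-fold lower. Bub1b was at 10.26, 10.42 and 10.27 after 12 h, against 10.96, 10.90 and 10.94 with vehicle (difference -0.62 ± 0.0523 (SE), adjusted p = 2.91e-08). Cenpf was at 9.84, 10.11 and 10.01 after 12 h, against 10.54, 10.56 and 10.55 with vehicle (difference -0.57 ± 0.0576 (SE), adjusted p = 3.09e-07). Melk, a kinase of dividing cells, was at 9.51, 9.59 and 9.39 after 12 h, against 10.06, 10.01 and 10.06 with vehicle (difference -0.55 ± 0.06 (SE), adjusted p = 7.94e-07). None of these genes had overlapping groups. Ccnf, Bub1b and Cenpf are genes whose promoters, printed above, hold both motifs, while Melk's window held no match.

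Cdk1 was at 11.61, 11.64 and 11.67 after 12 h, against 12.08, 12.02 and 12.06 with vehicle (difference -0.41 ± 0.0442 (SE), adjusted p = 5.92e-07). Plk1 was at 11.76, 11.77 and 11.74 after 12 h, against 12.05, 12.07 and 12.10 with vehicle (difference -0.32 ± 0.0472 (SE), adjusted p = 2.94e-05). Both genes were lower in each tunicamycin array than in any vehicle array. Cdc20 was at 11.07, 11.16 and 11.08 after 12 h, against 11.20, 11.19 and 11.24 with vehicle (difference -0.11 ± 0.0591 (SE), adjusted p = 0.222), so that the anaphase activator did not pass although its groups did not overlap. The count of 34 was 32 without the pair of arrays that stood apart.

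**Figure D5:**
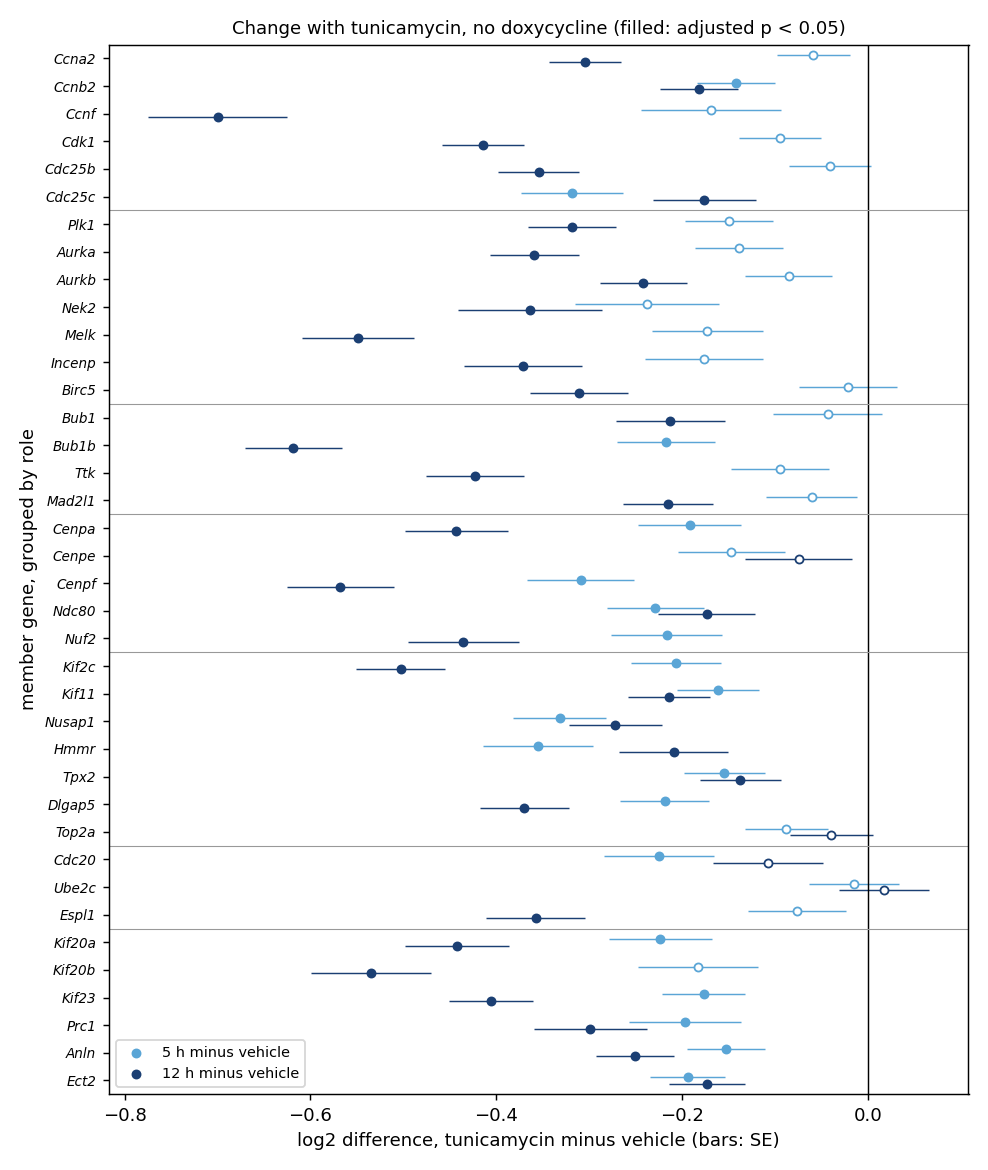
Log2 difference between tunicamycin and vehicle, both without doxycycline, for each of the 38 members (y axis, grouped by role) at 5 and 12 h, with SE bars and filled points for an adjusted p under 0.05. Most members lie further left at 12 h, led by Ccnf at -0.70, while Hmmr, Nusap1, Cdc25c and Cdc20 are among those further left at 5 h.

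Many members were lower after 12 h of tunicamycin than after 5 h. The test called 23 of 38 lower at 12 h than at 5 h and 0 higher, where 13.6% of all genes were called lower and 11.4% higher, and the median was -0.17, against -0.03 over all genes. Without adjustment, 24 members were lower and 2 higher at a p under 0.05, against 3864 and 2826 of all 19938 genes. All 4 checkpoint genes, 6 of 7 kinase and passenger genes and 4 of 6 cyclin and CDK1 genes fell further. Ccnf averaged 9.96 at 12 h, against 10.49 at 5 h (difference -0.53 ± 0.0749 (SE), adjusted p = 2.07e-05). The difference was -0.40 ± 0.0523 for Bub1b (SE, adjusted p = 8.48e-06) and -0.38 ± 0.06 for Melk (SE, adjusted p = 8.3e-05). Only 2 of 7 spindle and chromosome genes fell further. Hmmr differed by 0.15 (adjusted p = 0.0831), Cdc25c by 0.14 (adjusted p = 0.0703), Cdc20 by 0.12 (adjusted p = 0.174) and Nusap1 by 0.06 (adjusted p = 0.46), none of which passed. The count of 23 was 16 without the pair of arrays that stood apart and 13 without experiment 1 or 3. The count of 0 higher was 1 without the Tm 12 h array of experiment 3.

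In LIP cells tunicamycin for 5 h lowered nearly all of the list. The test called 37 of 38 members lower and 0 higher after 5 h of tunicamycin than in LIP cells without it, where 5.56% of all genes were called lower and 6.54% higher, and the median was -0.29. Before adjustment the count at a p under 0.05 was also 37 lower and 0 higher, against 2147 and 2261 of all 19938 genes. Cdc25c fell by 0.52 (SE 0.0552, adjusted p = 4.02e-06), Cenpf by 0.51 (SE 0.0576, adjusted p = 9.43e-06) and Ccnf by 0.51 (SE 0.0749, adjusted p = 0.000146). The count of 37 was 36 without the pair of arrays that stood apart and 21 without experiment 3. That these falls differ from those without LIP was not shown by the interaction at 5 h, which called 0 members.

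After 12 h the LIP cells had 37 of 38 members lower and 0 higher than LIP cells without tunicamycin, where 16.6% of all genes were called lower and 13.4% higher, and the median of -0.54 was the most negative of the comparisons. All 38 were lower at an unadjusted p under 0.05 and 0 higher, against 4106 and 3179 of all 19938 genes. Ccnf was at 9.56, 9.45 and 9.59 in LIP cells after 12 h, against 10.76, 10.58 and 10.59 in LIP cells without tunicamycin. Its groups were more than a whole log2 unit apart on average (difference -1.11 ± 0.0749 (SE), 2.16-fold lower, adjusted p = 1.18e-09). Cenpf differed by -0.87 ± 0.0576 (SE, adjusted p = 9.93e-10) and Kif2c by -0.82 ± 0.0483 (SE, adjusted p = 2.03e-10). Ube2c, at -0.13 (adjusted p = 0.0602), did not pass. The count was 37 without the pair of arrays that stood apart as well. Col1a1 was called higher here (difference 0.30, adjusted p = 0.00337), and the summed level of the 7 markers of other cell types was 9.18 to 9.23 in LIP cells after 12 h, against 9.06 to 9.15 in LIP cells without tunicamycin, and their part in the result was not tested.

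Between 5 and 12 h, LIP cells had 27 of 38 members lower at 12 h and 0 higher, where 15.4% of all genes were called lower and 10.9% higher, with a median of -0.26. At an unadjusted p under 0.05, 29 were lower and 0 higher, against 3945 and 2736 of all 19938 genes. Ccnf fell by 0.61 (SE 0.0749, adjusted p = 4.13e-06), Cdc25b by 0.46 (SE 0.0439, adjusted p = 1.62e-07) and Bub1b by 0.46 (SE 0.0523, adjusted p = 1.71e-06). Hmmr (0.00), Cdc25c (-0.02), Cdc20 (-0.03) and Nusap1 (-0.06) did not pass here either. The count was 27 without the pair of arrays that stood apart. Col1a1 was also called higher here (difference 0.20, adjusted p = 0.0426), with a summed marker level of 9.18 to 9.23 at 12 h, against 9.04 to 9.22 at 5 h.

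Ube2c was at 11.72, 11.56 and 11.75 in LIP cells at 12 h, against 11.85, 11.84 and 11.83 without doxycycline (difference -0.16 ± 0.0485 (SE), adjusted p = 0.026). Anln was called lower with tunicamycin at both times, with differences of -0.15 at 5 h and -0.25 at 12 h. Whether these members responded differently from the others was not tested. Over the 18 arrays the 703 pairs of members had a median Pearson r of 0.89, with all pairs above 0, and Bub1b had the highest median r with the other members (0.95) and Ube2c the lowest (0.60). After the group means were taken out, the median r was 0.23. These correlations describe arrays that share groups, experiments and normalisation.

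Of the transcription factors and MuvB subunits that act on these promoters, 9 were measured. With tunicamycin alone, 2 were called lower and 1 higher at 5 h, and 3 lower and 1 higher at 12 h, where 4.94% and 15.8% of all genes were called lower and 4.08% and 11.9% higher. With LIP, limma called 0 at 0 h, 5 lower and 0 higher at 5 h, and 3 lower and 0 higher at 12 h. At 0 h, 3 were lower and 0 higher at an unadjusted p under 0.05, against 2288 and 2148 of all 19938 genes. Of all genes 5.82%, 5.21% and 7.77% were called lower with LIP at 0, 5 and 12 h, and 4.89%, 6.76% and 6.95% higher. Mybl2, which encodes B-MYB, was at 9.44, 9.47 and 9.31 after 12 h of tunicamycin, against 10.12, 9.92 and 9.94 with vehicle (difference -0.59 ± 0.0964 (SE), adjusted p = 9.03e-05). With LIP it differed by -0.29 at 0 h (adjusted p = 0.0655), by -0.34 at 5 h (adjusted p = 0.026) and by -0.47 at 12 h (adjusted p = 0.00203). Foxm1 was at 11.24, 11.23 and 11.32 after 12 h, against 11.56, 11.66 and 11.61 with vehicle (difference -0.35 ± 0.0462 (SE), adjusted p = 8.23e-06). With LIP it differed by -0.16 at 5 h (adjusted p = 0.0231) and by -0.11 at 12 h (adjusted p = 0.139). For both factors each 12 h array lay below each vehicle array.

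Rbl1, Rbl2, E2f4 and the MuvB subunits did not move as a block. Rbl1, the pocket protein p107, was lower with tunicamycin at 5 h (-0.17, adjusted p = 0.0377) and at 12 h (-0.25, adjusted p = 0.000673), and lower with LIP at 5 h (-0.24, adjusted p = 0.00312) and 12 h (-0.20, adjusted p = 0.0113). Rbl2, the pocket protein p130, was lower with LIP at 5 h (-0.24, adjusted p = 0.00457), and its difference at 12 h was -0.11 (adjusted p = 0.207). E2f4, the E2F of the DREAM complex, was higher after 5 h of tunicamycin (0.26, adjusted p = 0.0324) and differed by 0.04 at 12 h. Lin52, a MuvB subunit, was at 10.27, 10.21 and 10.23 after 12 h, against 9.79, 9.75 and 9.73 with vehicle (difference 0.48, adjusted p = 1.57e-06, and 0.52 by its other probe set). It differed by -0.05 between LIP cells and cells without doxycycline at 12 h. Lin54, the CHR-binding subunit, was lower with LIP at 5 h (-0.19, adjusted p = 0.00457). Lin9 was lower after 5 h of tunicamycin (-0.29, adjusted p = 0.0135) and with LIP at 12 h (-0.23, adjusted p = 0.0322). Lin37 was called in none of these comparisons.

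Another 67 genes of G2 and mitosis, of 69 listed, were measured beside the members. With LIP, 5 of 67 were called lower and 0 higher at 0 h, 37 lower and 0 higher at 5 h, and 47 lower and 1 higher at 12 h, with medians of -0.08, -0.20 and -0.26. Of all genes 5.82% were called lower and 4.89% higher at 0 h, 5.21% and 6.76% at 5 h, and 7.77% and 6.95% at 12 h. With tunicamycin alone, 26 were called lower and 1 higher at 5 h, and 48 lower and 3 higher at 12 h, with medians of -0.14 and -0.29. The shares of all genes were 4.94% lower and 4.08% higher at 5 h, and 15.8% lower and 11.9% higher at 12 h. Fbxo5, which encodes the anaphase-promoting complex inhibitor EMI1, fell with LIP by 0.38 at 0 h (adjusted p = 0.000334), 0.44 at 5 h (adjusted p = 4.97e-05) and 0.59 at 12 h (adjusted p = 1.15e-06). Spag5, the spindle protein astrin, fell by 0.49 with LIP at 12 h (adjusted p = 5.63e-06). The largest falls with 12 h of tunicamycin were in Pimreg (-0.72), Pbk, a mitotic kinase (-0.66), and Cdca5, sororin of sister chromatid cohesion (-0.64). With 5 h the largest were in Depdc1a (-0.43), Cenpi (-0.39) and Mastl, the Greatwall kinase (-0.37).

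Some genes of this wider list rose. Pkmyt1, the kinase that holds CDK1 inactive, averaged 10.78 after 12 h of tunicamycin, against 10.24 with vehicle (difference 0.54 ± 0.0567 (SE), adjusted p = 4.85e-07). Mis12, a kinetochore gene, rose by 0.31 (adjusted p = 0.00304) and Sgo1, shugoshin, by 0.21 (adjusted p = 0.00711). Bora, an activator of Aurora A, rose by 0.19 at 5 h (adjusted p = 0.0301), and Zwint, a kinetochore gene, by 0.25 with LIP at 12 h (adjusted p = 0.0211).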

How the data were processed

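RNA from 18 cultures of B16 F10.9-4 cells was measured on 1-colour Affymetrix arrays. The authors deposited log2 intensities of 35557 probe sets, summarised with RMA in Partek per the submitters' processing notes, with no versions given. RMA understates the fold change of dim genes, and the number of arrays limits the precision. Of the probe sets 21789 had 1 symbol, 1621 several and 12147 none. The brightest single-symbol probe set stood for each gene. Groups and experiment numbers came from the labels. Groups were fitted with limma 3.58.1 (R 4.3.3) over all 18 arrays without a block, with 12 residual degrees of freedom, and adjusted over all genes. An interaction is a difference between LIP effects. Per the series design each experiment held all 6 groups, so same-numbered arrays are paired by experiment. The reported p-values do not use this pairing, and the block was run as an alternative. The deviations of same-numbered arrays had a median correlation of 0.04, with a range of -0.50 to 0.50 and 14 of 45 pairs over 0.1. Between other arrays the median was -0.01. The fit was tested on simulated data. Promoters were searched with Python 3.11.15, leaving out chromosome 18. Summed marker levels are log2 of summed linear intensities. The members and lists were chosen with earlier results of these data known.

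Named with full statistics in the LIP comparisons and at 12 h of tunicamycin were Cdk1, Plk1, Cdc20 and the 4 members with the largest change, elsewhere the 3 largest, besides called interactions, regulators and the 3 largest rises and falls of the other G2 and mitosis genes, of which not all are printed. Ube2c and Anln, and members given only by a difference, were chosen after their values were seen. Promoters printed were the 4 largest falls with a motif and the smallest change at 12 h of tunicamycin. The alternatives were the block, leaving out arrays or experiments, leaving out dim genes, the mean of probe sets, repeated quantile normalisation, equal array medians, trended robust variances, array weights and fitting only the compared groups.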

Additional observations from a re-analysis of the deposited data

Results flagged for a closer look

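The LIP effect at 12 h of tunicamycin differed from that at 0 h, by limma's interaction term with an adjusted p under 0.05, for 7 mitotic genes, each time toward lower levels at 12 h. The differences of log2 differences were -0.36 for Cdc25c (adjusted p = 0.0188), -0.35 for Espl1 (adjusted p = 0.0183) and -0.32 for Kif2c (adjusted p = 0.0199). Plk1 had -0.31 (adjusted p = 0.0189), Ccna2 -0.26 (adjusted p = 0.02), Ect2 -0.26 (adjusted p = 0.0257) and Cdc25b -0.25 (adjusted p = 0.0432). Each of the 7 missed the threshold under some of 24 alternatives, between 6 for Plk1 and 16 for Cdc25b, and all 7 missed it when the array medians were set equal.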

How the results depend on the processing

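No count or named value changed direction under the alternatives run. Of the members called lower with LIP at 0 h there were 4 without dim genes, 6 with equal array medians, 4 with trended robust variances, 7 with array weights and 4 when only the compared groups were fitted, against 1, and 0 to 2 with a replicate left out. With LIP at 5 h the count of 24 was 11 when only the compared groups were fitted and 7 to 24 with a replicate left out. With tunicamycin at 5 h the count of 19 was 11 without the Tm 5 h array of experiment 2 and the Tm 12 h array of experiment 3, 9 when only the compared groups were fitted and 3 to 15 with a replicate left out. Between 12 and 5 h of tunicamycin the count of 0 higher was 1 without dim genes, 1 with equal medians, 2 with array weights and 0 to 1 with a replicate left out, and the count of 23 lower was 13 to 22. In LIP cells at 5 h against 0 h the count of 37 was 36 without that pair of arrays and 21 to 34 with a replicate left out. For the interaction at 12 h the count of 7 was 11 with the replicate block, 14 without dim genes, 17 with repeated quantile normalisation, 0 with equal medians, 18 with trended robust variances, 15 with array weights and 0 to 7 with a replicate left out. For the interaction of 12 h against 5 h the count of 0 was 2 with trended robust variances. The cause was not tested, except that fewer arrays enter where some are left out. The counts with LIP at 12 h (26 to 35) and with tunicamycin at 12 h (25 to 34) stayed within 1.5 times the reported ones. Pairing by experiment changed no other count by that much and no named member but Cdc20 with LIP at 5 h (adjusted p = 0.0586). Over all named members and alternatives, 840 values stayed on their side of the threshold, 89 lost it and 13 passed it.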
